A study of Mus musculus with 12 samples.

Results

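The late step of adipocyte differentiation was compared between 3T3-L1 cells with and without knockdown of Fto. For each gene, the change in log2(TPM + 1) from the mitotic clonal expansion (MCE) stage to the differentiation (Diff) stage was taken within each line, and the change in shScram cells was subtracted from the change in shFto cells. This difference in late change used 8 of the 12 libraries of the hairpin lines, with no preadipocyte library. The genes tested were the 15318 of 55487 in the table that reached a TPM of 1 in at least 2 of these 8 libraries. TPM is a share of all transcripts corrected for gene length.

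3T3-L1 is an established line of mouse fibroblasts that can become fat-storing cells. All 4 groups carried a lentiviral hairpin construct, had been selected with puromycin and had been induced with MDI medium (IBMX, dexamethasone and insulin). The protocol then changes to a medium that keeps the insulin and has no IBMX or dexamethasone. The sources give collection days for the rhein-treated cells, for which MCE is the last day of MDI. With the same days in the hairpin lines, the stages differ in medium as well as in time. The groups were shScram MCE, shScram Diff, shFto MCE and shFto Diff, with 2 libraries each. shScram cells carried a control hairpin and shFto cells a hairpin against Fto, the gene of an RNA demethylase that acts on N6-methyladenosine (m6A). The sources used here do not say which hairpin against Fto was sequenced, and with 1 line per hairpin the knockdown and the line cannot be told apart. The labels do not say whether replicates came from separate cultures, so the p-values measure the spread between these libraries, which may be technical. Replicate 1 of shScram Diff has a title that names shScram and a treatment entry that names the knockdown. It was placed by its title, and its Fto level of 73.5 TPM was close to the 70.8 TPM of replicate 2.

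After MDI induction, growth-arrested preadipocytes divide again in mitotic clonal expansion and then leave the cell cycle. C/EBPβ and C/EBPδ act early, and PPARγ and C/EBPα then switch on the genes for fatty acid uptake, lipid droplets, triglyceride synthesis and adipokines. The late step compared here therefore spans the end of division and the build-up of the fat cell program.

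The late change differed between the lines for 2733 genes (17.8% of those tested) by limma at a Benjamini-Hochberg adjusted p under 0.05. It was higher in shFto cells for 1279 genes (8.35%) and lower for 1454 (9.49%). A difference of at least 1 on the log2 scale was met by 544 of the higher genes (3.55%) and 312 of the lower ones (2.04%). At an unadjusted p under 0.05, 5180 genes (33.8%) differed. The late changes of the lines did not overlap between any library pairs for 7452 genes (48.6%), among them all 2733 called genes. Over all genes tested the median difference was -0.05, and of the called genes 46.8% were higher in shFto cells, a share that became 57.3% with median-ratio scaling between libraries. Without the library whose labels disagree, 1225 genes were called higher and 1196 lower. Leaving out either shFto MCE library took the calls to 751 higher and 569 lower (replicate 1) or 692 higher and 587 lower (replicate 2), and leaving out either shFto Diff library took them to 784 higher and 611 lower or 804 higher and 794 lower. Without shScram MCE replicate 2 there were 1043 higher and 909 lower. With the preadipocyte libraries in the same fit (12 libraries, same contrast), 247 were called higher and 177 lower.

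**Figure D1:**
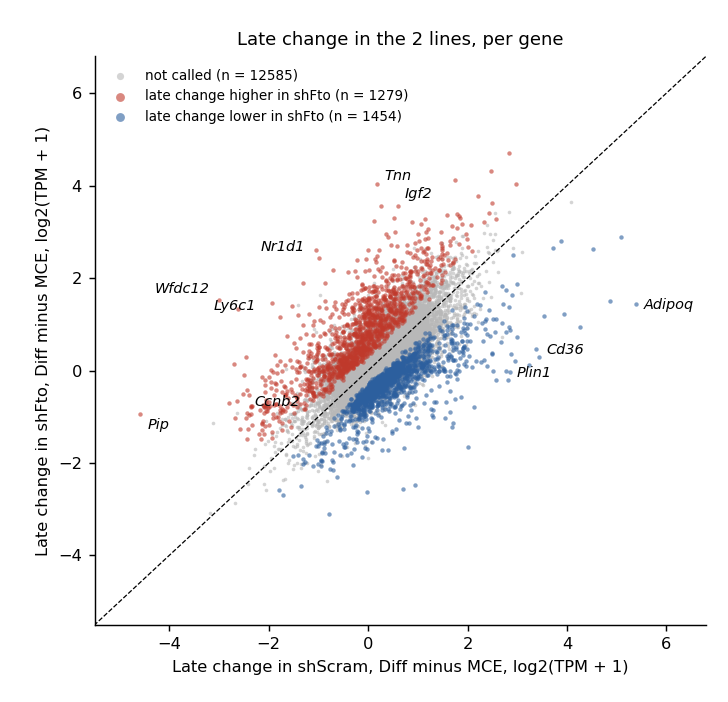
Late change (Diff minus MCE, log2(TPM + 1)) of each of the 15318 tested genes in shScram (x axis) and in shFto (y axis). Genes above the diagonal in colour are the 1279 called higher in shFto cells and those below it are the 1454 called lower.

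Within the lines, 6099 genes (39.8%) rose and 2190 (14.3%) fell late in shScram cells, and 5423 (35.4%) rose and 2637 (17.2%) fell in shFto cells. Among the 1454 genes with a lower late change in shFto cells, 534 (36.7%) rose in shScram cells and had no call in shFto cells. A further 442 (30.4%) fell in shFto cells and had no call in shScram cells, while 174 (12%) rose in shScram and fell in shFto cells. Among the 1279 genes with a higher late change, 422 (33%) rose in shFto cells with no call in shScram cells. Another 247 (19.3%) fell in shScram cells with no call in shFto cells, and 134 (10.5%) fell in shScram and rose in shFto cells.

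A difference in late change can arise at either stage, so the lines were also compared within each. At the MCE stage 4046 genes (26.4%) were higher and 2568 (16.8%) lower in shFto than in shScram cells, and at the Diff stage 4014 (26.2%) were higher and 3272 (21.4%) lower. Of the genes with a higher late change, 491 (38.4%) differed between the lines at Diff alone, 274 (21.4%) were lower in shFto cells at MCE alone, and 161 (12.6%) crossed from lower at MCE to higher at Diff. Of the genes with a lower late change, 511 (35.1%) were lower at Diff alone, 454 (31.2%) were higher at MCE alone, and 140 (9.63%) crossed from higher to lower.

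The lowest difference belonged to Adipoq, the gene of the adipokine adiponectin (chromosome 16, 23146536 to 23158028, GRCm38). Adipoq had 0.817 and 0.791 TPM in the shScram MCE libraries and 77.2 and 72.4 TPM in shScram Diff, against 0.984 and 1.25 TPM in shFto MCE and 6.05 and 3.66 TPM in shFto Diff. The lines were close at MCE and far apart at Diff, where no library of one line came near the other. Its mean TPM rose 93-fold in shScram cells and 4.35-fold in shFto cells, and the difference in late change was -3.95 (standard error 0.27, limma adjusted p = 7.18e-05). In bulk RNA, fewer cells of a type and less RNA per cell cannot be told apart, here and for the genes that follow.

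Some genes for taking up and storing fat followed the same direction, while others had no call. Of 14 tested genes for fatty acid uptake and lipid droplets, 7 had a lower late change in shFto cells and 1 a higher one. These were 50% and 7.14%, beside 9.49% and 8.35% of all genes. The median was -0.52 beside -0.05 for all genes. Cd36, a fatty acid transporter of the cell surface (chromosome 5, 17781690 to 17888801), had 13 and 12.8 TPM in shScram MCE, 148 and 151 TPM in shScram Diff, 1.65 and 1.11 TPM in shFto MCE, and 2.71 and 1.24 TPM in shFto Diff. It was thus already low in shFto cells at MCE and rose 11.6-fold in shScram cells, with no call in shFto cells (difference -3.15, standard error 0.30, limma adjusted p = 0.000355). Plin1, which coats the lipid droplet (chromosome 7, 79720218 to 79732903), had 4.02 and 4.53 TPM in shScram MCE, 36.9 and 37.1 TPM in shScram Diff, 2.73 and 2.26 TPM in shFto MCE, and 2.65 and 2.21 TPM in shFto Diff. Plin1 rose in shScram cells and had no call in shFto cells, whose libraries overlapped between the stages (difference -2.88, standard error 0.20, limma adjusted p = 6.72e-05).

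Cidec, a droplet fusion protein, rose in shScram cells from 15.3 and 13.4 to 37.3 and 36.5 TPM and fell in shFto cells from 2.77 and 3.07 to 0.932 and 1.46 TPM (difference -2.15). Lpl, the lipase that frees fatty acids from lipoproteins, showed another pattern. In shFto cells it was higher than in shScram cells at MCE, with 196 and 199 against 92.4 and 77.1 TPM, and at Diff the lines had 282 and 269 against 303 and 333 TPM (difference -1.42). Plin4, another droplet coat protein, was the member with a higher late change (0.61), since it rose from 6.02 and 6.3 to 35.6 and 33.8 TPM in shFto cells, still under the 114 and 104 TPM of shScram Diff. For Fabp4, the fatty acid binding protein of fat cells, the difference was small (-0.57, standard error 0.15, limma adjusted p = 0.0296), and it rose in both lines, from 211 and 231 to 876 and 836 TPM in shScram cells and from 44.1 and 52.7 to 138 and 118 TPM in shFto cells. That call was made in 7 of 18 alternative settings. It was lost without any of 5 libraries, namely shFto Diff replicate 2 (adjusted p = 0.0986), shFto MCE replicate 2 (0.106), shScram Diff replicates 1 (0.075) and 2 (0.0588) and shScram MCE replicate 1 (0.0736).

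Of 12 tested genes for making and breaking down triglyceride, 7 had a lower late change in shFto cells (3 with 12 libraries in the fit). In 1 it was higher (median -0.67). That is 58.3% lower and 8.33% higher, beside 9.49% and 8.35% of all genes. Gpd1, which makes the glycerol backbone, rose in shScram cells from 2.54 and 1.5 to 49.9 and 40.6 TPM and in shFto cells from 1.33 and 0.567 to 3.82 and 3.07 TPM (difference -2.74). G0s2, an inhibitor of the lipase Pnpla2, had a difference of -2.06, the acyltransferase Agpat2 one of -1.29 and the glycerol channel Aqp7 one of -1.30. Aqp7 was scarce, at no more than 2.39 TPM in any library, and its call was lost without any of 6 libraries (adjusted p from 0.0581 to 0.0911) and with a pseudocount of 0.1 (-2.89, 0.125). Pnpla2 itself, the adipose triglyceride lipase, went the other way with a difference of 0.95, as it rose in shFto cells from 10 and 12.1 to 34.7 and 30 TPM and in shScram cells from 60.5 and 56.4 to 85.6 and 82.5 TPM. Among 8 tested adipokines, Adipoq, Cfd (-2.36) and Angptl4 (-1.30) had a lower late change (37.5%, beside 9.49% of all genes). None had a higher one.

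Of 14 tested genes for fatty acid synthesis, 2 were lower (14.3%, beside 9.49% of all genes) and 1 higher (7.14%, beside 8.35%), with a median of -0.02. The lower members were Thrsp, a lipogenic regulator with 1.63 and 1.93 TPM in shScram MCE, 52.5 and 52 TPM in shScram Diff, 0.116 and 0.13 TPM in shFto MCE, and 1.37 and 0.939 TPM in shFto Diff (difference -3.33), and the synthase Fasn (-0.52). The elongase Elovl5 was higher (0.71).

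Among the transcription factors of fat cell formation, 4 of 15 tested members were higher and 1 lower, with a median of -0.07. The shares were 26.7% and 6.67%, beside 8.35% and 9.49% of all genes. At MCE 9 of the 15 were lower in shFto cells and 2 higher, and at Diff 8 were lower and 4 higher. Over all genes, 16.8% were lower and 26.4% higher at MCE, and 21.4% were lower and 26.2% higher at Diff. Pparg, the factor that drives the fat cell program, had 32.1 and 27.9 TPM in shScram MCE, 40.3 and 44.6 TPM in shScram Diff, 13.9 and 11.6 TPM in shFto MCE, and 17.7 and 16.9 TPM in shFto Diff. It rose in both lines by like amounts, 0.49 and 0.42 on the log2 scale, so that the gap between them at MCE was still there at Diff (difference in late change -0.07, standard error 0.16, limma adjusted p = 0.789). Cebpa fell in shScram cells from 7.13 and 6.88 to 5.01 and 3.77 TPM and rose in shFto cells from 3.91 and 3.32 to 5.77 and 5.19 TPM (difference 1.07, adjusted p = 0.0132). Its call was lost without shFto Diff replicate 1 (adjusted p = 0.0562) or shFto MCE replicate 2 (0.0578), with no filter on low values (0.051) and with 12 libraries in the fit (0.414). Cebpb, with a difference of -0.10 and an adjusted p of 0.651, fell in both lines. With a GC correction its difference was -0.30 and was called (adjusted p = 0.045 by limma), and with the replicate block added to that correction it was -0.30 and not called (0.0717). Rxra, the partner of PPARγ, was higher (0.62), as were Klf4 (0.56) and Cebpd (0.36), while Zfp423, a marker of committed preadipocytes, was lower (-0.90). Among 11 tested inhibitors of adipogenesis, Klf2 (1.62), Dlk1 (1.40) and Ddit3 (0.41) were higher and Hes1 (-1.12) was lower. For the inhibitors this was 27.3% higher and 9.09% lower, beside 8.35% and 9.49% of all genes. Dlk1, also known as preadipocyte factor, fell in shScram cells from 1182 and 1106 to 888 and 822 TPM and rose in shFto cells from 484 and 431 to 899 and 909 TPM, so the lines were close at Diff.

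**Figure D2:**
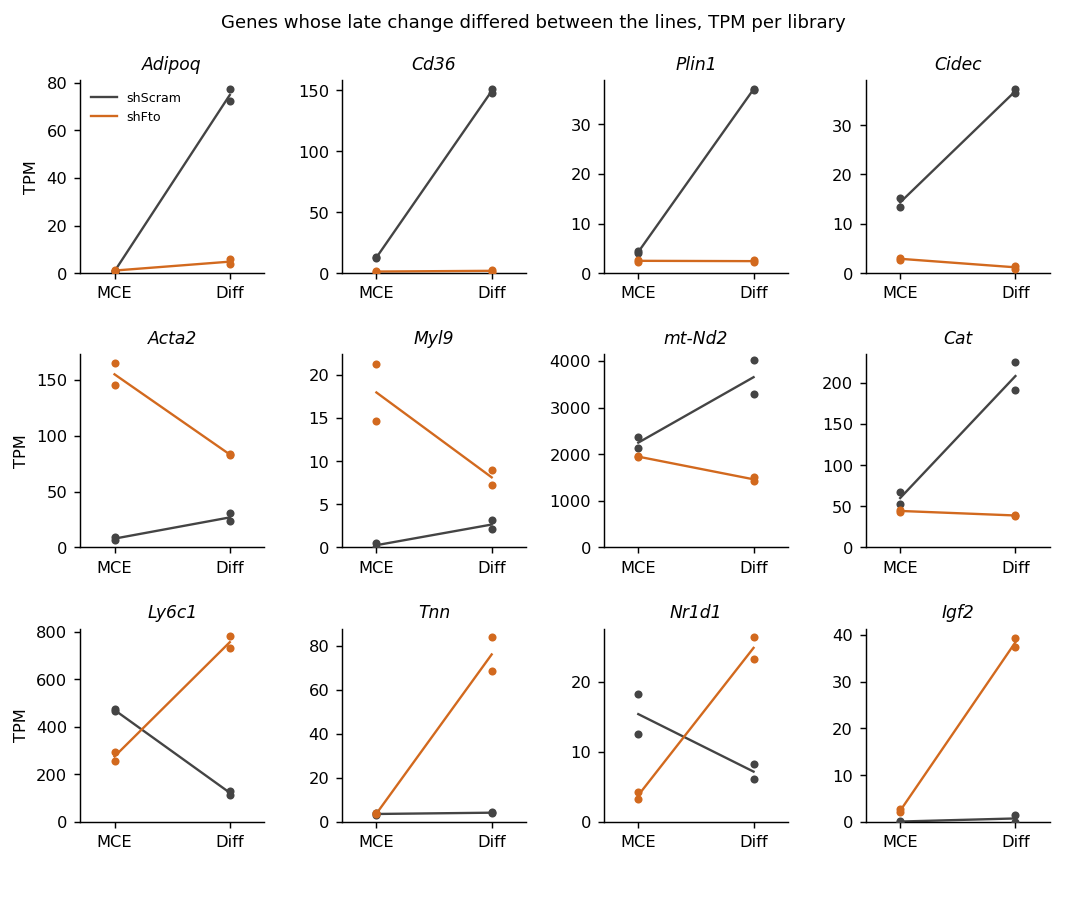
TPM of 12 genes in each library (points) with group means joined by lines, at MCE and Diff, for shScram and shFto cells. Adipoq reached 77.2 and 72.4 TPM in shScram Diff and 6.05 and 3.66 TPM in shFto Diff, while Tnn reached 68.4 and 83.9 TPM in shFto Diff and stayed under 5 TPM in the other groups.

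Of 18 tested genes for fatty acid oxidation and peroxisomes, 7 had a lower late change in shFto cells (3 with 12 libraries in the fit). None had a higher one and 11 had no call (median -0.30). The 7 were 38.9% of those tested, beside 9.49% of all genes. Cat, the peroxisomal enzyme catalase, rose in shScram cells from 66.8 and 53.1 to 225 and 191 TPM and stayed within 38 to 45.3 TPM over the 4 shFto libraries (difference -1.97, standard error 0.16, limma adjusted p = 0.000158). Cpt1a, which brings fatty acids into mitochondria, was higher in shFto cells at MCE and fell there from 87.1 and 88.3 to 66.9 and 70.2 TPM, while it rose in shScram cells from 29.5 and 27.2 to 53.7 and 54.7 TPM (difference -1.26). Hadhb (-0.79) and Acads (-0.67), enzymes of β-oxidation, followed.

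All 13 protein-coding genes of the mitochondrial chromosome had a negative difference (median -0.65). Of them 9 were called lower (69.2%, beside 9.49% of all genes) and 4 were not. mt-Nd2, a subunit of complex I, rose in shScram cells from 2372 and 2123 to 3290 and 4011 TPM and fell in shFto cells from 1965 and 1929 to 1419 and 1503 TPM (difference -1.11, standard error 0.15, limma adjusted p = 0.00208). mt-Nd1 (-0.94), mt-Atp6 (-0.88) and mt-Cytb (-0.79) came next, and mt-Atp6 was at -0.57 with quantile normalization. The share of all TPM from this chromosome was 6.22% and 5.72% in shScram MCE, 7.4% and 9.16% in shScram Diff, 4.89% and 4.83% in shFto MCE, and 4.6% and 4.58% in shFto Diff. These genes share a promoter region and a chromosome and are not independent of each other. The number called went down to 4 and 5 without shFto Diff replicate 1 or 2, to 3 and 4 without shFto MCE replicate 1 or 2 and to 5 without shScram MCE replicate 2. It was 0 with 12 libraries in the fit, 1 with no filter on low values and 5 without a trend in eBayes. mt-Cytb lost its call without any of the 4 shFto libraries (adjusted p from 0.0608 to 0.0771). Among 21 tested respiratory chain subunits encoded in the nucleus, 1 (Ndufs1, -0.41) was lower (4.76%, beside 9.49% of all genes) and none higher, with a median of -0.13. Of 11 tested genes of the citric acid cycle, 3 (27.3%) were lower, among them Idh3a (-0.60) and Fh1 (-0.44), and none higher.

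Mitotic genes were the list with the largest share of calls among the 39 lists. Of 31 tested genes, mainly for spindle, kinetochore, centromere and cyclin function, 27 had a higher late change in shFto cells and none a lower one. The list also holds the cyclin Ccna2, Top2a and the proliferation marker Mki67. The called share was 87.1%, beside 8.35% of all genes, and all 31 values were positive (median 0.96). All 31 fell late in shScram cells, with a median of -2.08, and 29 fell in shFto cells, with a median of -0.94. In the same lines 14.3% and 17.2% of all genes fell. At MCE the lines were mixed, with 8 of the genes higher and 14 lower in shFto cells, and at Diff all 31 were higher in shFto cells. Of all genes tested, 26.4% were higher and 16.8% lower at MCE, and 26.2% were higher at Diff. The summed level of the list was 2292 and 2212 TPM in shScram MCE, 480 and 483 TPM in shScram Diff, 1968 and 1868 TPM in shFto MCE, and 950 and 992 TPM in shFto Diff. The count was 24 to 28 with any 1 library left out and 10 with 12 libraries in the fit.

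Ccnb2, a cyclin of mitotic entry (chromosome 9, 70407692 to 70421547), had 79.4 and 80 TPM in shScram MCE, 13.5 and 14.4 TPM in shScram Diff, 51.5 and 46.8 TPM in shFto MCE, and 34.1 and 39.5 TPM in shFto Diff. The lines crossed, with shFto cells lower at MCE and higher at Diff, and no library of one line overlapped the other at either stage. Ccnb2 fell 5.71-fold in shScram cells and 1.34-fold in shFto cells (difference 2.02, standard error 0.13, limma adjusted p = 5.35e-05). Cenpa, the histone of centromeres (chromosome 5, 30666777 to 30674830), had 124 and 127 TPM in shScram MCE, 28.8 and 27.2 TPM in shScram Diff, 78 and 82.2 TPM in shFto MCE, and 71.8 and 72.7 TPM in shFto Diff (difference 1.98). Bub1b, a spindle checkpoint kinase (chromosome 2, 118598211 to 118641591), had 96.1 and 93.7, 14.3 and 14.7, 64.8 and 58.1, and 39.4 and 38.1 TPM in the same groups (difference 1.98). Cdc20, which activates the anaphase-promoting complex (chromosome 4, 118432901 to 118437352), had 130 and 142, 27.7 and 22.7, 71.1 and 68.1, and 46.6 and 48.7 TPM (difference 1.86). Cdc20 overlaps Elovl1 on the opposite strand, and its level is uncertain because the sources do not say whether counting used strand. The proliferation marker Mki67, at 45.5 and 37.9, 10.3 and 12.7, 47.5 and 42.1, and 23.7 and 24.9 TPM, overlapped between the lines at MCE and was higher in shFto cells at Diff (difference 0.92). The members without a call were Cdk1 (0.96, adjusted p = 0.0824), Ttk (0.54), Nuf2 (0.49) and Spc25 (0.32).

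Promoters of these genes are known to carry the cell cycle homology region motif TTTGAA, which the DREAM and MuvB complexes bind. Stretches of 150 bases around the start site are printed 5′ to 3′ from RefSeq (GRCm38.p6), with matches to the motif on either strand in capitals, for the 4 leading mitotic genes and for the replication gene Pcna. They are Bub1b at chr2:118598111-118598260 (plus strand), Ccnb2 at chr9:70421505-70421654 (minus), Cdc20 at chr4:118437294-118437443 (minus), Cenpa at chr5:30666786-30666935 (plus) and Pcna at chr2:132253131-132253280 (minus).
Bub1b: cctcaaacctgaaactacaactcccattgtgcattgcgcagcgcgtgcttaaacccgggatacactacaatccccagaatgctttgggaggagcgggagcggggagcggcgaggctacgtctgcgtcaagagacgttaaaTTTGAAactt
Ccnb2: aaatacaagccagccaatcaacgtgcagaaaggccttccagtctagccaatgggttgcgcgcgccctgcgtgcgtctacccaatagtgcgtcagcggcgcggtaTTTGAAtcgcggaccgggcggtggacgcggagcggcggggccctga
Cdc20: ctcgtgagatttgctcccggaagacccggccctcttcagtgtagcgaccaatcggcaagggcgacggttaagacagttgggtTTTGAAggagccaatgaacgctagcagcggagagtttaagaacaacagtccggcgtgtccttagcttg
Cenpa: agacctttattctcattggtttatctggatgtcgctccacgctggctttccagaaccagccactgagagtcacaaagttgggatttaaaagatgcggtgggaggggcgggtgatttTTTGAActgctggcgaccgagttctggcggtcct
Pcna: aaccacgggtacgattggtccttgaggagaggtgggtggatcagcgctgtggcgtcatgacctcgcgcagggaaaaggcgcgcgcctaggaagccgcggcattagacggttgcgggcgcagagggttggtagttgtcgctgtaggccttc

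A match lay in each of the 4 mitotic stretches and in none of Pcna. In the full windows of the RefSeq table, which span 300 bases, TTTGAA was found on either strand in 21 of 28 windows of the mitotic genes (75%, 26 of the 31 genes matched), 3 of 29 windows of the replication genes (10.3%, 24 of the 30 genes matched) and 17.9% of all 32851 windows. Among the 12979 windows of tested genes the share was 12.4%, beside 16.1% for genes with a higher late change and 11% for those with a lower one. A match is a description of the sequence and shows no binding.

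DNA replication genes with a call went the other way. Of 30 tested, 14 had a lower late change in shFto cells and none a higher one (median -0.40). The 14 were 46.7% of those tested, beside 9.49% of all genes, and the other 16 had no call. The list fell in both lines, with 27 genes falling in shScram and 30 in shFto cells, beside 14.3% and 17.2% of all genes. At MCE 24 of the 30 were higher in shFto cells and none lower, and at Diff 14 were higher and 2 lower. Over all genes, 26.4% were higher and 16.8% lower at MCE, and 26.2% were higher and 21.4% lower at Diff. Summed levels were 1256 and 1274 TPM in shScram MCE, 614 and 591 TPM in shScram Diff, 2243 and 2221 TPM in shFto MCE, and 762 and 794 TPM in shFto Diff. Pcna, the sliding clamp of DNA polymerase (chromosome 2, 132249162 to 132253314), had 180 and 160 TPM in shScram MCE, 97.6 and 81.9 TPM in shScram Diff, 313 and 329 TPM in shFto MCE, and 95 and 88.7 TPM in shFto Diff. The lines were apart at MCE and overlapped at Diff (difference -0.88, standard error 0.13, limma adjusted p = 0.00344). Ccne2, the cyclin of S phase entry (-1.11), Rfc3 of the clamp loader (-1.09) and Gins2 of the replicative helicase (-0.86) also had higher levels in shFto cells at MCE. The number of replication genes called was 7 and 8 without shFto Diff replicate 1 or 2, 6 and 7 without shFto MCE replicate 1 or 2 and 9 without shScram MCE replicate 1. It was 4 with 12 libraries in the fit. The call of Gins2 was lost without any of 6 libraries (adjusted p from 0.0697 to 0.117). The called genes of the replication list and of the mitotic list thus had differences of opposite sign in the same libraries.

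**Figure D3:**
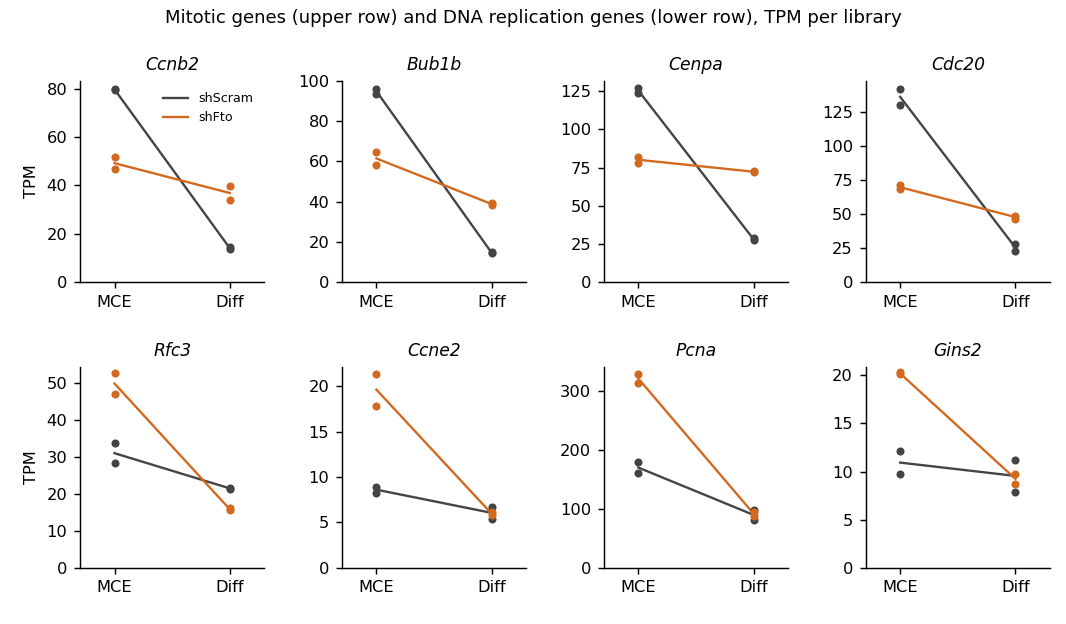
TPM of 4 mitotic genes (upper row) and 4 DNA replication genes (lower row) in each library (points) with group means joined by lines, at MCE and Diff. Ccnb2 fell from 79.4 and 80 to 13.5 and 14.4 TPM in shScram cells and from 51.5 and 46.8 to 34.1 and 39.5 TPM in shFto cells, while Pcna was apart at MCE and met at Diff.

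Further cell cycle genes were read one by one, with Reep3, which the study follows as a target of rhein. Bub1, a checkpoint kinase, had 31.8 and 27.4 TPM in shScram MCE, 5.77 and 6.21 TPM in shScram Diff, 41.8 and 37.3 TPM in shFto MCE, and 16 and 15.1 TPM in shFto Diff (difference 0.84, limma adjusted p = 0.00727). Wee1, the kinase that holds back mitotic entry, fell in shScram cells from 24.7 and 21.5 to 15.7 and 15.3 TPM and was at 19.2 to 23.1 TPM in all shFto libraries (difference 0.68, adjusted p = 0.0145). The call of Wee1 was lost without shFto Diff replicate 2 (adjusted p = 0.0575) or shFto MCE replicate 1 (0.0648). No call was made for Cdc25a (-0.38), Cdc6 (-0.67), E2f3 (-0.24), Skp2 (-0.06) or Reep3 (-0.17), with adjusted p from 0.0694 for Cdc6 to 0.843 for Skp2. Cdc25a was called with no filter on low values (adjusted p = 0.0476 by limma). Fto, the target of the knockdown, had 59.1 and 55.7 TPM in shScram MCE, 73.5 and 70.8 TPM in shScram Diff, 6.32 and 6.03 TPM in shFto MCE, and 7.47 and 7.05 TPM in shFto Diff. Its late change did not differ beyond the spread (-0.12, standard error 0.12, adjusted p = 0.51). Among 15 regulators of m6A, Ythdc1 (-0.48) and Ythdf2 (-0.43), which read the mark, and Wtap (-0.34), part of the writer complex, were lower (20%, beside 9.49% of all genes) and none was higher.

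Of 10 tested contractile genes of smooth muscle, which stress fibres of fibroblasts also use, 6 had a lower late change in shFto cells. None had a higher one (median -0.85), and 2 were lower with 12 libraries in the fit. The 6 were 60% of those tested, beside 9.49% of all genes. Acta2, smooth muscle actin (chromosome 19, 34241090 to 34255590), had 8.93 and 6.9 TPM in shScram MCE, 23.3 and 30.5 TPM in shScram Diff, 165 and 145 TPM in shFto MCE, and 82.6 and 83.9 TPM in shFto Diff. Thus Acta2 was far higher in shFto cells at MCE, and the lines moved toward each other (difference -2.53, standard error 0.20, limma adjusted p = 0.00013). The myosin light chain Myl9 (-2.59) moved likewise, from 21.3 and 14.6 to 8.98 and 7.26 TPM in shFto cells and from 0 and 0.525 to 2.1 and 3.21 TPM in shScram cells. Tagln (-1.44), an actin-binding protein, fell in shFto cells and had no call in shScram cells, and the actin gene Actg2 (-1.33) was under 7 TPM throughout. Actg2 lost its call without any of 5 libraries (adjusted p from 0.0597 to 0.0842) and with a pseudocount of 0.1 (-2.04, 0.231), and Myl9 was at -4.55 with that pseudocount. The members without a call were Des, Mylk, Tpm1 and Tpm2, at -0.23 to 0.21.

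Cholesterol synthesis genes fell late in shScram cells for 17 of 19 tested members and in shFto cells for 12. In the same lines 14.3% and 17.2% of all genes fell. The late change was higher in shFto cells for 9 (47.4%, beside 8.35% of all genes) and lower for 1 (5.26%, beside 9.49%). The median was 0.51. Lss, which makes lanosterol, fell from 35.5 and 35.6 to 18.1 and 18.3 TPM in shScram cells and was at 27.4 and 25.9 and then 26.6 and 30.7 TPM in shFto cells (difference 1.03, standard error 0.13, limma adjusted p = 0.00128). Pmvk of the mevalonate pathway (0.80) lost its call without any of 6 libraries (adjusted p from 0.0786 to 0.126), and its difference was 0.50 without shScram Diff replicate 2. Cyp51, which acts right after Lss, was the exception (-1.12), at 14.7 to 17.3 TPM in 6 libraries and 8.19 and 7.42 TPM in shFto Diff. Cyp51 overlaps Akap9 on the opposite strand. The number of higher calls was 5 without shFto Diff replicate 2, either shFto MCE library or shScram MCE replicate 1, and 0 with 12 libraries in the fit.

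Of 12 genes known as targets of the glucocorticoid receptor, 7 had a higher late change in shFto cells and 1 a lower one (median 0.63). That is 58.3% and 8.33%, beside 8.35% and 9.49% of all genes. With any 1 library left out 7 were higher, and with 12 libraries in the fit 3 were. Dexamethasone, a ligand of this receptor, is in MDI and not in the later medium, and its part in these values was not tested. Zbtb16, a transcription factor, was at 11.4 TPM in both shScram MCE libraries, 14.3 and 13.9 TPM in shScram Diff, 6.85 and 6.47 TPM in shFto MCE, and 24.7 and 25.5 TPM in shFto Diff (difference 1.49, standard error 0.13, limma adjusted p = 0.000245). Tsc22d3, known as glucocorticoid-induced leucine zipper, had 569 and 546, 797 and 806, 118 and 115, and 405 and 413 TPM in the same groups (difference 1.28). The lines crossed for Zbtb16, whereas Tsc22d3 stayed lower in shFto cells at both stages and rose more steeply there. Lcn2, which also belongs to the acute phase list, and the metallothionein Mt2 (1.24) fell in shScram and rose in shFto cells. Lcn2 went from 717 and 776 to 373 and 380 TPM in shScram cells and from 417 and 424 to 622 and 570 TPM in shFto cells (difference 1.49). Mt2 overlaps Gm45774 on the opposite strand. Sgk1, a kinase of salt and glucose transport, was lower (-0.56).

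**Figure D4:**
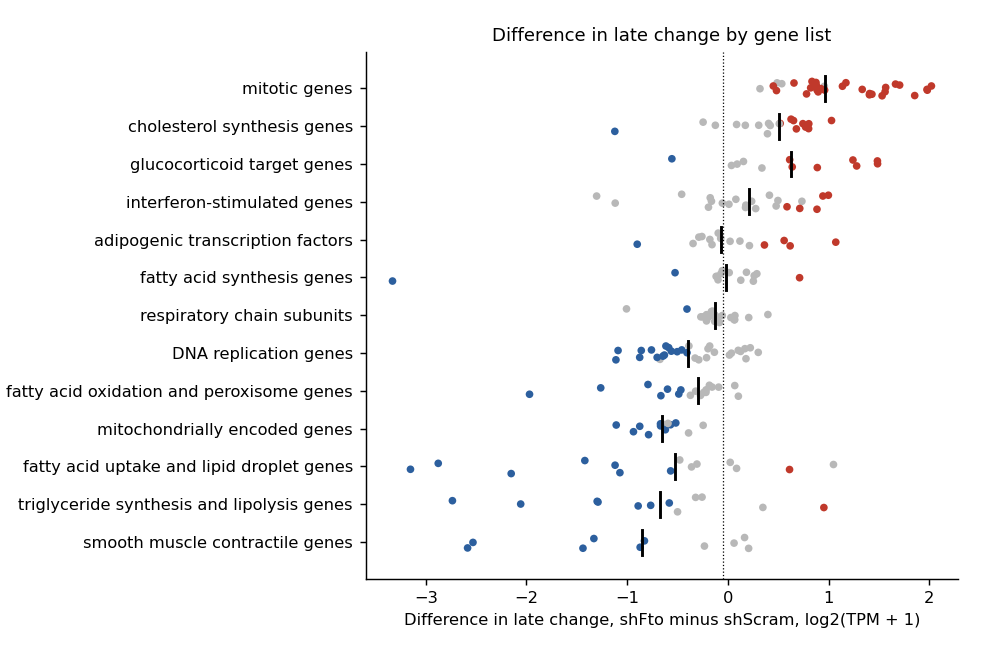
Difference in late change (shFto minus shScram, log2(TPM + 1), x axis) of each tested member of 13 gene lists, coloured where called, with the list median as a bar and the median of all genes (-0.05) as a dotted line. Mitotic genes lie highest (median 0.96) and smooth muscle contractile genes lowest (median -0.85).

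Of 22 interferon-stimulated genes, 21 were higher in shFto cells at MCE and 22 at Diff, beside 26.4% and 26.2% of all genes. The late change was higher for 5 (22.7%, beside 8.35% of all genes) and lower for none (median 0.21). The 5 were Irf7 (1.00), Ifi44 (0.94), Bst2 (0.89), Oas1a (0.71) and Stat2 (0.59). Irf7, the master factor of the interferon response, had 1.82 and 2.02 TPM in shScram MCE, 2.99 and 3.07 TPM in shScram Diff, 5.4 and 6.05 TPM in shFto MCE, and 17.9 and 17.2 TPM in shFto Diff. A pair of GAAA blocks with 2 bases between them, the core of the interferon-stimulated response element, was present on either strand in 10 of 18 RefSeq promoter windows of these genes (55.6%, 16 of the 22 genes matched) and in 3.44% of all windows and 3.14% of those of tested genes. Of 12 genes for MHC class I and antigen processing, 1 had a higher late change (8.33%, beside 8.35% of all genes) and none a lower one. Among 17 acute phase and cytokine genes, Saa3 (2.54), Lcn2 and Hp (1.45) were higher (17.6%) and none lower, with a median of -0.01. Saa3, a serum amyloid protein, had 35.6 and 46.4 TPM in shScram MCE, 31.6 and 29.1 TPM in shScram Diff, 403 and 407 TPM in shFto MCE, and 1949 and 1619 TPM in shFto Diff. Hp, haptoglobin, rose in both lines and reached 95.2 and 91.1 TPM in shScram Diff against 1837 and 1794 TPM in shFto Diff. Complement genes were mixed, with Serping1 (1.87), C4b (1.34) and Cd55 (1.05) higher, and Cfd (-2.36) and Cd59a (-0.60) lower, of 11 tested. The shares were 27.3% and 18.2%, beside 8.35% and 9.49% of all genes. Cd55 was listed at 0 in all shScram libraries and at 1.28 and 1.09 TPM in shFto Diff, the group through which alone it passed the filter. Between the lines, 4 of the 11 were higher and 4 lower in shFto cells at MCE, and 5 higher and 3 lower at Diff. Their summed level, most of it C3, was 1393 and 1253 TPM in shScram MCE, 3290 and 3233 TPM in shScram Diff, 433 and 375 TPM in shFto MCE, and 1155 and 1135 TPM in shFto Diff.

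The genes with the 10 highest differences began with Wfdc12 (4.52), a small protease inhibitor that fell in shScram cells from 28.8 and 41.8 to 2.88 and 4.19 TPM and rose in shFto cells from 3.15 and 4.82 to 14.5 and 11.8 TPM. Tnn, the gene of the matrix protein tenascin N (chromosome 1, 160085029 to 160153580), was at 3.24 to 4.41 TPM in 6 libraries and at 68.4 and 83.9 TPM in shFto Diff (difference 3.87, standard error 0.21, limma adjusted p = 2.94e-05). It rose 20.8-fold in shFto cells and had no call in shScram cells. Serpina3n (2.88), a serine protease inhibitor of the acute phase, reached 195 and 177 TPM in shFto Diff from 40.4 and 40.5 TPM, and fell in shScram cells from 18.1 and 21.9 to 11.1 and 12.6 TPM. It has close paralogs beside it, so its level is uncertain. The kinase Pim1 (2.92) reached 30.3 and 33.1 TPM in shFto Diff from 11.6 and 11.4 TPM and fell in shScram cells from 6.67 and 8.2 to 1.65 and 2.18 TPM. For Pip (3.64), a secreted protein, the difference came from shScram cells, which fell from 28.7 and 32.6 to 0.725 and 0 TPM, while shFto cells were at 1.46 and 0.759 and then 0 and 0.161 TPM. With a pseudocount of 0.1 the call of Pip was lost (3.90, adjusted p = 0.0729 by limma). H2-Q2, a class Ib MHC gene with near-identical neighbours (3.66), was listed at 0 in 5 libraries and at 3.23 TPM in shScram MCE replicate 2 and 6.65 and 3.91 TPM in shFto Diff. Its values are uncertain, its difference was 8.23 with a pseudocount of 0.1, and its call was lost without shFto Diff replicate 1 (adjusted p = 0.0641) and with no filter on low values (0.0972).

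Among the lowest differences besides those of Adipoq, Thrsp and Cd36 were Sult1a1 (-3.37), a sulfotransferase, and Car3 (-3.03), the carbonic anhydrase of fat and muscle. Sult1a1 rose in shScram cells from 2.36 and 2.43 to 99.9 and 95.8 TPM and in shFto cells from 0.716 and 0.431 to 3.84 and 3.03 TPM. It overlaps Sgf29 on the opposite strand. Car3 rose in shScram cells from 1.5 and 1.35 to 14.6 and 17.8 TPM and was under 0.7 TPM in all shFto libraries. Both genes were thus high in shScram Diff alone. Mfsd4a (-3.41), a transporter that overlaps Elk4 on the opposite strand, had 15.8 and 7.81 TPM in shScram Diff, 15.1 and 6.53 TPM in shFto MCE, and 0.708 and 1.31 TPM in shFto Diff, a wide spread between replicates. Its shScram MCE level, which also enters the difference, is not given here. With 12 libraries in the fit its call was lost (adjusted p = 0.0753). Rn7sk (-2.91), a short noncoding RNA that restrains transcription elongation, had 9.57 and 17.1 TPM in shScram Diff and 6.55 and 2.65 TPM in shFto Diff. Its difference also rests on the MCE levels, which are not given here. Its call was lost with 12 libraries in the fit (adjusted p = 0.0688) and with no filter on low values (0.0513). The protocadherins Pcdhgb1 (-3.66) and Pcdhga2 (-2.93) share their last exons and much of their span with the rest of the γ cluster, so their TPM is an uncertain split. Pcdhgb1 lost its call with 12 libraries in the fit (adjusted p = 0.31). Pcdhga2 had 9.75 and 4.48 TPM in shFto MCE and 8.08 and 1.15 TPM in shFto Diff. Its shScram levels, on which the difference also rests, are not given here. Its call (adjusted p = 0.0382) was lost without any of 6 libraries (adjusted p from 0.0516 to 0.122), and without shFto Diff replicate 2 the difference was -1.89.

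Ly6c1 (3.40) and Ly6c2 (2.93), surface proteins of the Ly6 family, stood among the 10 highest. Ly6c1 (chromosome 15, 75044018 to 75048830) fell in shScram cells from 466 and 476 to 114 and 130 TPM and rose in shFto cells from 293 and 257 to 733 and 781 TPM (standard error 0.12, limma adjusted p = 1.11e-05). The same cluster holds Ly6a, also called Sca-1, a marker of stromal progenitors. Ly6a was at 820 and 798 TPM in shScram MCE and 732 and 720 TPM in shFto MCE, and then at 135 and 114 TPM in shScram Diff and 793 and 820 TPM in shFto Diff (difference 2.85). The lines were close at MCE and apart at Diff. The other tested genes within 300 kb of the start site of Ly6a, a neighbourhood chosen after these values were seen, are given as a description. Ly6e (1.42) and Them6 (1.08) had calls and were well above the filter. Calls were also made for Ly6i (1.90), Ly6a2 (1.28), Psca (1.48) and Slurp1 (1.47), which were scarce and reached their highest group means, 3.35 and 1.48 TPM in shFto Diff and 1.53 and 2.87 TPM in shScram MCE, in the group through which they passed the filter. Jrk (0.05), Lynx1 (0.40) and Ly6f (0.68) had no call. Reads of near-identical Ly6 genes may be split between them, so single members are uncertain.

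Igf2 (2.97), the fetal growth factor, is imprinted together with H19, a noncoding RNA beside it on chromosome 7. Igf2 was at 0 and 0.0636 TPM in shScram MCE, 1.36 and 0.0251 TPM in shScram Diff, 2.03 and 2.65 TPM in shFto MCE, and 37.5 and 39.4 TPM in shFto Diff (standard error 0.46, limma adjusted p = 0.00375). The call of Igf2 was lost with a pseudocount of 0.1 (2.25, adjusted p = 0.276) and with 12 libraries in the fit (adjusted p = 0.0805). H19 (142575529 to 142578143) was at 2.92 to 3.91 TPM in the shScram libraries, 7.33 and 7.05 TPM in shFto MCE, and 43.3 and 40.9 TPM in shFto Diff (difference 2.62). Both were high in shFto Diff, with no overlap with another group. Within 300 kb of the H19 start site, also chosen after these values were seen, calls were made for Prr33 (2.58), Tnnt3 (1.87), Tnni2 (1.28) and Lsp1 (0.79), and none for Mrpl23 (0.59), Syt8 (0.48), Ctsd (0.12) and Ifitm10 (0.03). Gm49394 (3.12) overlaps Igf2 on the same strand and passed the filter through shFto Diff alone, where its mean was 8.67 TPM. Tnnt3, a troponin of fast skeletal muscle that overlaps Prr33, reached 441 and 391 TPM in shFto Diff and 27 and 40.4 TPM in shScram Diff. Of 9 tested IGF ligands, receptors and binding proteins, Igf2, Igfbp6 (2.61) and Igfbp3 (1.07) were higher and Igfbp5 (-1.99), Igfbp7 (-0.68) and Igf1r (-0.57) lower. Each direction held 33.3% of them, beside 8.35% higher and 9.49% lower of all genes. Igfbp6 fell in shScram cells from 138 and 133 to 57 and 44.4 TPM and rose in shFto cells from 16.2 and 14.9 to 35.8 and 38 TPM, and Igfbp5 rose in shScram cells from 49.4 and 44.5 to 91.7 and 93 TPM and fell in shFto cells from 139 and 128 to 67.1 and 62.9 TPM.

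**Figure D5:**
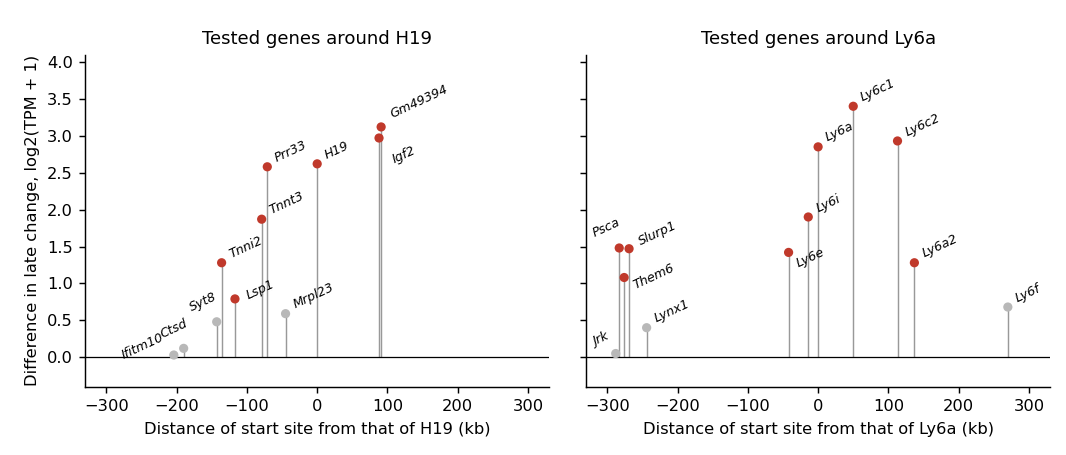
Difference in late change (log2(TPM + 1), y axis) of the tested genes within 300 kb of the start sites of H19 (left) and Ly6a (right), against distance in kb, with called genes in colour. The regions were drawn around genes chosen for this difference, H19 (2.62) and Ly6a (2.85), so the calls shown are a description.

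Nr1d1 (3.44), a repressor of the circadian clock, had 18.2 and 12.5 TPM in shScram MCE, 8.18 and 6.11 TPM in shScram Diff, 3.29 and 4.25 TPM in shFto MCE, and 23.2 and 26.4 TPM in shFto Diff (standard error 0.28, limma adjusted p = 0.000146). It overlaps Thra on the opposite strand. A list of clock genes, chosen after these values were seen, had 6 of 18 tested members higher and 1 lower, with a median of 0.15. As a description, this is 33.3% and 5.56%, beside 8.35% and 9.49% of all genes. Dbp (2.77), a clock output factor, went from 2.26 and 2.11 to 32 and 28.8 TPM in shFto cells and from 8.34 and 6.76 to 11.2 and 11.4 TPM in shScram cells, and Nr1d2 (2.14) had the same form. The clock activator Arntl had no call (0.02), at 12.9 to 20.7 TPM in all libraries. The hour of collection is not given in the sources used here, and its part in these values was not tested.

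Matrix genes moved both ways. Of 20 tested genes of collagens and fibres, 5 had a higher and 6 a lower late change (median -0.09). These were 25% and 30%, beside 8.35% and 9.49% of all genes. Postn, periostin, rose in shScram cells from 439 and 319 to 1435 and 1534 TPM and in shFto cells from 280 and 257 to 411 and 421 TPM (difference -1.35). Fbn1, fibrillin, fell in shScram cells from 27.8 and 22.6 to 13.3 and 14.3 TPM and rose in shFto cells from 107 and 101 to 139 and 155 TPM (difference 1.31). Eln (1.13), elastin, was higher and Lox (-0.97), which cross-links both collagen and elastin, was lower. Of 17 tested proteoglycans, proteases and their inhibitors, 4 were higher (23.5%) and 5 lower (29.4%), with a median of -0.39. They were led by the lubricating proteoglycan Prg4 (2.01), the aggrecanase Adamts5 (1.66), Timp4 (-1.71) and fibromodulin, Fmod (-1.71). Prg4 shares its locus with Tpr and Timp4 with Syn2, each on the opposite strand.

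Cell type markers were read in the same libraries. Of the adipocyte markers, Adipoq, Plin1, Cidec and Cfd had a lower late change in shFto cells, Fabp4 had one that was also called in 7 of 18 alternative settings, and Pparg had no call. Other genes of fat cells, Plin4 (0.61), Pnpla2 (0.95), Cebpa (1.07) and Rxra (0.62), had a higher one. The summed level of the fibroblast markers, led by Vim, was 9131 and 8897 TPM in shScram MCE, 10991 and 10423 TPM in shScram Diff, 6746 and 6506 TPM in shFto MCE, and 8530 and 8886 TPM in shFto Diff. Of the 9 tested, 1 was higher (Ly6a) and 1 lower (Pdgfrb, -0.54). That is 11.1% each way, near the 8.35% and 9.49% of all genes. All 6 endothelial markers were below the filter, with Kdr and Cldn5 listed at 0 in all 8 libraries. Of 8 macrophage markers 3 were tested and none called. Their summed level was 6.38 to 8.88 TPM in shScram and 41.7 to 49.9 TPM in shFto libraries, most of it Cd14, while Adgre1 and Tyrobp were listed at 0 throughout. Of 6 skeletal muscle markers, Myod1, Myog, Myh3 and Ckm were below the filter, with Myod1 and Ckm listed at 0. Tnnt3 was the called member of the 2 tested (50%, beside 8.35% of all genes).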

How the data were processed

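The methods of the study describe RNA-seq of fragmented total RNA for rhein-treated cells and give no separate protocol for the hairpin lines. TPM per gene was deposited by the authors, who used Trim Galore 0.6.5 for trimming, HISAT2 2.1.0 for alignment to GRCm38 (Ensembl release 102) and StringTie 2.1.4 for quantification. Their DESeq2 test on counts was not repeated. Sequencing depth cannot be read from TPM and is unknown here. Genes above 0 numbered 20853 to 24018 per library. From log2(TPM + 1), which understates changes of low genes, limma 3.58.1 in R 4.3.3 fitted the 4 group means, with a trended eBayes prior, 4 residual degrees of freedom, two-sided tests and Benjamini-Hochberg adjustment over 15318 genes. GENCODE M21 held 99.5% of the identifiers and gave coordinates.

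The named genes were the 10 highest and 10 lowest differences among called genes with a size of at least 1, a group mean of 5 TPM and late changes that did not overlap, leaving out predicted genes and small RNAs with symbols in Mir, Snor, Scarna, Rnu or n-R (Rn7sk has none of these and was kept), then a fixed set of fat cell and cell cycle genes and up to 4 called members of each list. Some genes that met these rules are not reported here. Other genes are named for completeness of a count, for a marker or for background. The members and lists were chosen with earlier results of these data known. Simulated data for this contrast over 15318 genes gave 199 calls among 200 genes set to differ by 2 (log2) and 4 calls among the others. No library pair held identical values, and replicates correlated at 0.989 to 0.993 across genes. The difference between replicates had a Spearman correlation with GC content of 0.37 in shScram Diff and -0.21 in shScram MCE. In shFto MCE and shFto Diff it was -0.012 and 0.028. Alternatives were another pseudocount, filters, scalings, 12 libraries, no trend, GC correction, a replicate block and each library left out. Deviations of same-numbered libraries from their group means correlated at -0.0738 to 0.187 over the pairs of groups, the highest between shFto MCE and shFto Diff, so the numbers were not taken as pairs.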

Additional observations from a re-analysis of the deposited data

Results flagged for a closer look

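For each gene given here the test of the difference between the lines passed its threshold. On the log2(TPM + 1) scale the differences in late change were 4.52 for Wfdc12, 3.87 for Tnn, 3.66 for H2-Q2, 3.64 for Pip, 3.44 for Nr1d1, 3.40 for Ly6c1, 2.97 for Igf2, 2.93 for Ly6c2, 2.92 for Pim1 and 2.88 for Serpina3n. They were -3.95 for Adipoq, -3.66 for Pcdhgb1, -3.41 for Mfsd4a, -3.37 for Sult1a1, -3.33 for Thrsp, -3.15 for Cd36, -3.03 for Car3, -2.93 for Pcdhga2 and -2.91 for Rn7sk. All were chosen by the size of this same difference, so these values are a description. Groups of 2 libraries were not tested for an outlying one.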

How the results depend on the processing

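Of 1202 alternative values for 67 named genes, 1093 kept their direction and side of the threshold, 96 lost the call, 2 gained it and 11 changed sign. With 12 libraries in the fit, 247 genes were called higher and 177 lower, all of them also called with 8, and the list counts became 10 mitotic (from 27), 4 replication (14), 3 triglyceride (7), 3 oxidation (7), 0 mitochondrially encoded (9), 2 contractile (6), 0 cholesterol (9) and 3 glucocorticoid (7). With no filter on low values, 8 replication, 1 mitochondrially encoded and 5 cholesterol genes were called. Without a trend in eBayes the counts were 8, 5 and 5. Quantile normalization and median-ratio scaling each gave 9 replication genes. Named genes that lost their call with 12 libraries included Acads, Actg2, Agpat2, Bub1, Cdc20, Cebpa, Fabp4, Gins2, Igf2, Lss, Mfsd4a, Mt2, Pcdhga2, Pcdhgb1, Pmvk, Rn7sk, Tagln, Wee1, mt-Nd1, mt-Nd2, mt-Atp6 and mt-Cytb (adjusted p from 0.0688 to 0.76). With no filter these were Actg2, Aqp7, Cebpa, Fabp4, Gins2, H2-Q2, Pcdhga2, Pmvk, Rn7sk, mt-Nd1, mt-Atp6 and mt-Cytb (0.0502 to 0.183). The cause of these moves was not tested.

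With 1 library left out, 692 to 1225 genes were called higher and 569 to 1457 lower. The lists gave 24 to 28 mitotic, 6 to 12 replication, 6 to 8 uptake and droplet, 5 to 7 triglyceride, 5 to 9 oxidation, 3 to 11 mitochondrially encoded, 4 to 5 contractile, 5 to 10 cholesterol and 7 to 7 glucocorticoid genes. A group left with 1 library was assumed to vary like the others.

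Uncalled genes near 0 changed sign. Cebpb (-0.10) was 0.04 without shScram Diff replicate 1, and -0.23 to 0.04 over the libraries left out. Pparg (-0.07) was 0.01 with median-ratio scaling and -0.19 to 0.05 with 1 library left out, among them 0.05 without shFto MCE replicate 1, 0.00 without shScram Diff replicate 2 and 0.03 without shScram MCE replicate 2. Skp2 (-0.06) was 0.04 with quantile normalization, 0.01 with median-ratio scaling and -0.19 to 0.06 with 1 library left out, among them 0.06 without shFto Diff replicate 1 or shScram MCE replicate 2, 0.00 without shFto MCE replicate 2 and 0.04 without shScram Diff replicate 2.

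With the replicate number as a block, 1095 genes were called higher and 1129 lower, and of the named genes Gins2 lost its call (adjusted p = 0.0525 by limma). Same-numbered libraries share a number and no stated source. The pseudocount of 0.1 gave 1126 and 1302 and ended the calls of Actg2, Aqp7, Igf2, Pcdhga2 (0.0517), Pip and Pmvk (0.0526), the mean of 5 TPM 1121 and 1430, and the GC correction 1369 and 1642. The limits are 2 libraries a group, unknown depth and 1 line per hairpin.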

Other observations

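The counts of the remaining lists stand beside 8.35% higher and 9.49% lower over all genes tested. Of 15 genes of the unfolded protein and amino acid stress responses, 5 had a higher late change in shFto cells and 2 a lower one (median 0.16). Chac1, which breaks down glutathione, fell in shScram cells from 16.8 and 20.3 to 5.96 and 6.88 TPM and was at 18.6 and 19.4 and then 20.1 and 17.4 TPM in shFto cells (difference 1.37, limma adjusted p = 0.00166). Trib3, a pseudokinase of the same response, had a difference of 0.84. Of 11 targets of Nrf2, 4 were lower and 1 higher, led by Gclc, the first enzyme of glutathione synthesis (0.94), and Gsta4 (-0.89).

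Among 11 genes of the insulin response and glucose uptake, 3 were lower (27.3%) and none higher. Ppp1r3c, which targets a phosphatase to glycogen, rose in shScram cells from 30.7 and 25.3 to 59.4 and 65.2 TPM and fell in shFto cells from 57.4 and 55.1 to 35.2 and 32.7 TPM (difference -1.84, limma adjusted p = 0.000113). The receptor substrates Irs2 (-0.86) and Irs1 (-0.83) were the other members. Of 17 gene records for glycolysis, 2 were higher and 1 lower, with a median of 0.00. Of 16 for branched-chain amino acid breakdown, 1 was higher and 1 lower.

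Of 11 targets of p53, Phlda3 (1.25), Sesn1 (0.97) and Cdkn1a (0.30) were higher (27.3%) and none lower. The Wnt list had 3 higher and 2 lower of 8, led by Ccn4 (-2.10), and the TGF-beta and BMP list 3 higher and 4 lower of 16, led by Inhba (-1.39). Targets of YAP and TEAD had 1 higher and 2 lower of 9, and caveola genes 1 higher and none lower of 6. Imprinted growth genes had 3 of 5 higher (60%; Igf2, H19 and Dlk1) and none lower. Of 9 brown adipocyte genes 3 were tested and Dio2, the enzyme that activates thyroid hormone, was higher (1.06), while Ucp1, Prdm16 and Elovl3 were listed at 0 in all 8 libraries.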
